A study of Mus musculus with 5 samples.

Results

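The gene set comprised 52 listed mouse genes of the interferon response and of antigen presentation by major histocompatibility complex (MHC) class I. A listed gene entered when the array held a probe set annotated with its symbol alone, and the probe set with the highest mean signal stood for a gene with several. By that rule 48 of the 52 genes were measured, out of 19938 genes on the array, and Isg15, Ifi44, Gbp2 and Igtp had no such probe set. The 48 genes fell into 5 roles: 6 interferon receptors and Janus kinases, 5 signal transducers and interferon regulatory factors, 11 nucleic acid sensors, 21 interferon effectors and 5 antigen presentation genes.

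RNA came from pancreatic islet cells that were sorted by fluorescence into a Flattop-positive fraction (3 arrays) and a Flattop-negative fraction (2 arrays). All donors were untreated C57BL/6 mice aged 8 to 12 weeks, kept under specific-pathogen-free conditions and heterozygous for the Flattop allele FVR, so that both fractions carried 1 copy of the reporter allele and no wild-type animals were compared. Each array held RNA from a pool of 4 to 6 mice, the sex of which was not determined. Flattop, encoded by Cfap126, is a planar cell polarity effector, and the series asks how islet cells that differ in Flattop differ in proliferation and maturity. The labels do not say whether the pools of a fraction came from separate cohorts, so p-values measure only the spread between these pools.

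Type I interferons bind a receptor built from IFNAR1 and IFNAR2, and type II interferon binds IFNGR1 and IFNGR2. Janus kinases on these receptors, JAK1 and TYK2 for type I and JAK1 and JAK2 for type II, activate STAT proteins, which enter the nucleus alone or with IRF9 and switch on genes through the interferon-stimulated response element (ISRE) or the gamma-activated site (GAS). Many of the induced proteins sense or destroy viral RNA, and others load peptides onto MHC class I. Islet endocrine cells respond to interferons, and interferon signatures and high MHC class I are known features of islets in type 1 diabetes.

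Cfap126 measured 6.07, 6.07 and 6.24 on the log2 scale in Flattop-positive replicates 1 to 3, and 5.52 and 5.44 in Flattop-negative replicates 1 and 2. The positive arrays lay 0.64 ± 0.18 higher (SE; limma adjusted p = 0.274), in the direction of the labels and with no overlap between the fractions. The sorted material was endocrine: Ins2, one of the mouse insulin genes, lay between 12.37 and 13.08, and Gcg, the glucagon gene, between 12.81 and 13.39. The fractions differed in beta cell markers: 7 of 11 measured met the call rule described below, all higher in the positive fraction, and the median difference of the list was 1.26, while 2 of 6 alpha cell markers met it as lower. Slc2a2, the glucose transporter of mouse beta cells, was 1.48 ± 0.20 higher (limma adjusted p = 0.198). The part of these differences in the interferon-response values was not tested. Of 18 measured macrophage and monocyte markers, 7 were at or below the background level on every array, among them Ptprc, Adgre1, Mrc1, Cd163 and Itgam. Some of the others were above it on all 5 arrays, such as Cd68 (5.21 to 6.59) and the complement gene C1qa. C1qa measured 7.15, 6.98 and 6.02 in the positive pools and 4.95 and 5.84 in the negative pools. It was the 1 marker of this list that met the call rule as higher. Another 2 met it as lower, and the median difference of the list was -0.42. Background was set for each array at the level that 95% of its 1027 olfactory receptor genes stayed under, which was 4.29 to 4.86. One pool stood apart in each fraction: the female-specific transcript Xist measured 7.81 in positive replicate 3 and 8.62 in negative replicate 2, against 3.58 to 4.36 on the other 3 arrays. In Flattop-negative replicate 1, Sst, the somatostatin gene, was at 8.08, against 12.32 to 13.19 on the others.

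The comparison of the 2 fractions asked whether interferon-response or antigen presentation genes differ with Flattop. Of the 48 genes, 1 met the call rule of an unadjusted limma p under 0.05 with at least a 1.5-fold difference, whereas 11.8% of all genes met it (8.08% higher and 3.74% lower in the positive fraction). That gene was Ifnar1, a type I interferon receptor subunit, which was 1.56-fold higher in Flattop-positive cells. No gene of the array passed an adjusted p of 0.05 in limma, and 13.8% of all genes and 1 of the 48 had an unadjusted p under 0.05. The adjusted p-values of the 48 genes ran from 0.332 to 0.994. Of these genes 33 had the higher mean in the positive fraction and 15 the lower. Over all genes 8136 were higher and 11802 lower, and over the 10090 above background on every array 6361 and 3729. The median log2 difference of the 48 was 0.30, against -0.10 over all genes and 0.18 over genes above background on every array. On all 3 positive arrays 4 genes (Ifnar1, Irf3, Irf9 and Tap2, 8.33%) exceeded both negative arrays, which 13.7% of all genes did. None lay below both negative arrays on all positive arrays, against 21% of all genes, so that the 4 were also all of the genes without overlap in either direction (34.7% of all genes). Of the 48 genes, 44 were above background on every array. Among all 10090 such genes 24.4% were higher and 8.35% lower without overlap, and 1714 met the call rule.

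The 48 genes spread widely within each fraction. Their median SD over the 3 positive pools was 0.95 log2 units for the 48 genes, against 0.20 for all genes and 0.25 for genes above background on every array. Flattop-positive replicate 3 was the lowest of the positive arrays for 40 of the 48 genes (83.3%; 35.4% of all genes), and it was at least 2-fold below both others for 31 (64.6%; 1.54% of all genes). Flattop-negative replicate 2 was below negative replicate 1 for 34 of the 48 (70.8%; 45.2% of all genes), and at least 2-fold below for 20 (41.7%; 10.9% of all genes). The range over the positive pools was among the widest 5% of all genes for 32 of the 48 (66.7%; 5.01% of all genes). Negative replicate 2 was at least 2-fold above negative replicate 1 for 6 genes (12.5%; 10.4% of all genes): Irf1, Oasl1, Ifi35, Tap1, Tapbp and Nlrc5. Negative replicate 1 was the highest of the 5 arrays for 12 genes (25%; 28.5% of all genes) and the lowest for 10 (20.8%; 24.1% of all genes), shares near those of the array. Positive replicate 3 was the lowest positive array and negative replicate 2 was below negative replicate 1 for 30 of the 48 genes (62.5%), against 18.5% of all genes. These counts were chosen after the values were seen and are a description without a test. Because whole pools were measured, fewer responding cells and less RNA per cell cannot be told apart.

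**Figure D1:**
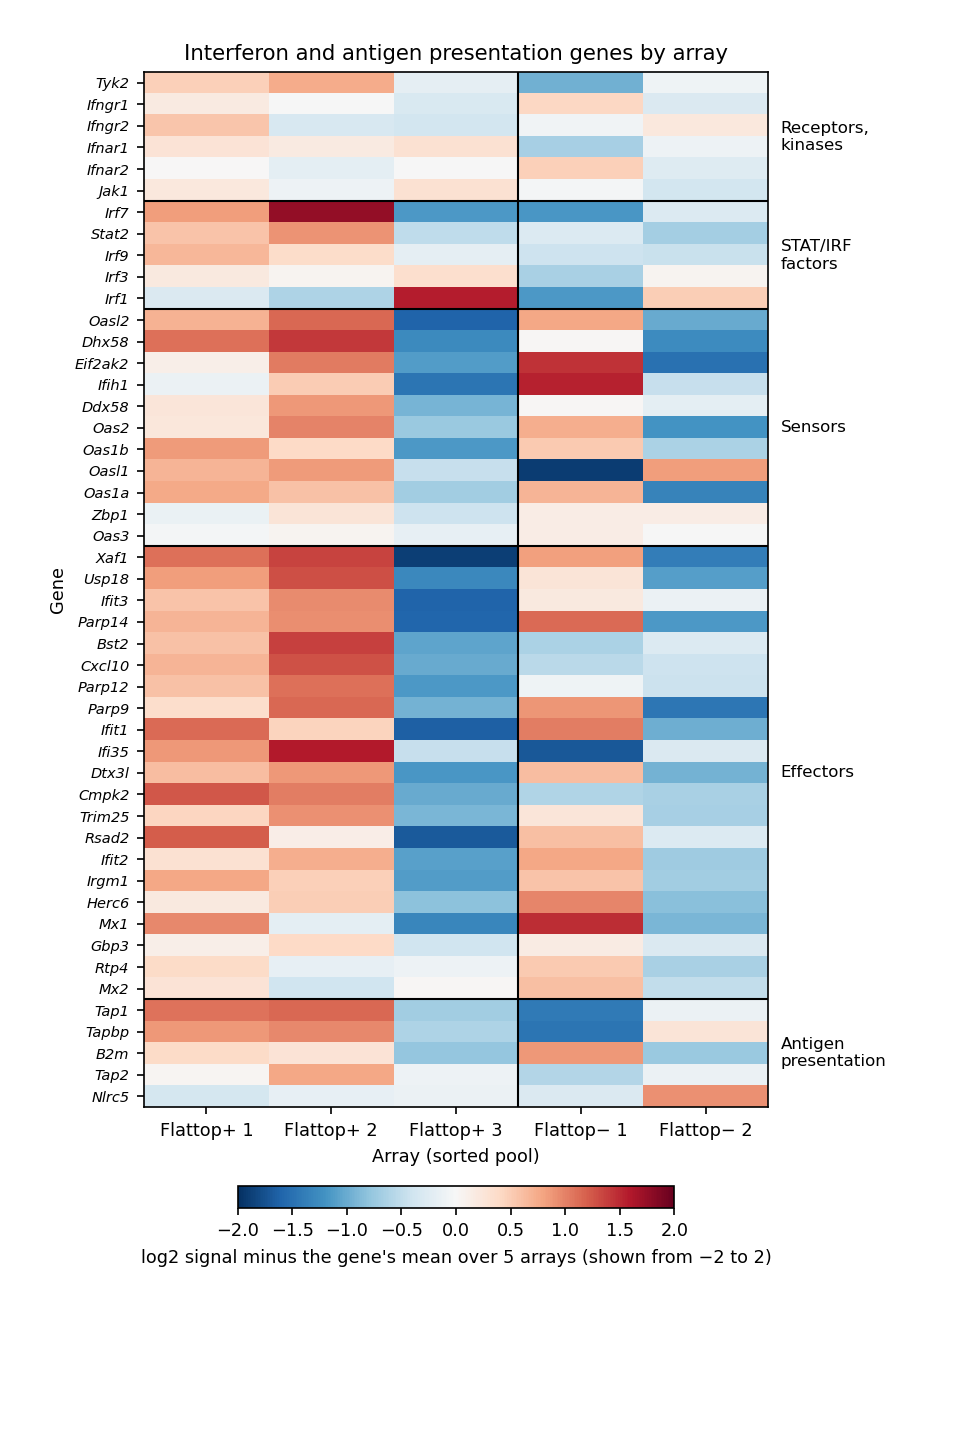
Log2 signal of the 48 measured genes minus each gene's mean over the 5 arrays, with arrays in columns, genes in rows by role, and colour from -2 to 2 log2 units. Most sensors and effectors are above their mean in Flattop-positive replicates 1 and 2 and below it in positive replicate 3 and negative replicate 2, while the receptor rows vary little.

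The pools with low interferon-response genes were those with high Xist, and they also carried high levels of immediate-early and NF-κB response genes. The median of 12 such genes, listed after the values were seen, was 6.81, 5.42 and 9.68 in positive replicates 1 to 3 and 6.41 and 9.01 in negative replicates 1 and 2. Among them Atf3, a stress-induced transcription factor, measured 7.51, 5.27 and 11.51 in the positive pools and 7.61 and 11.74 in the negative pools. Eif2s3y, a Y-linked gene, stayed above background on every array, at 8.00, 7.84, 7.78, 8.71 and 6.38 in the same order, and in negative replicate 2 the Y-linked Uty, at 4.58, was below background. As a list, macrophage and monocyte markers were highest in negative replicate 2, where the log2 of their summed signal was 10.35 against 8.58 to 8.98 on the other 4 arrays, and where Lyz2 alone measured 9.41. Stellate and mesenchymal markers were also highest there, with a log2 summed signal of 9.68 against 7.89 to 8.31, and the median beta cell marker was lowest, at 8.75 against 9.96 to 10.18. By log2 summed signal, however, the beta cell list was lowest in negative replicate 1, at 14.23, with 14.30 in negative replicate 2 and 14.59 to 14.85 in the positive pools. The part of these genes in the interferon-response values was not tested. Within the 2 pools with high Xist, positive minus negative had a median of -0.23 over the 48 genes, and within the other 3 pools 0.13.

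**Figure D2:**
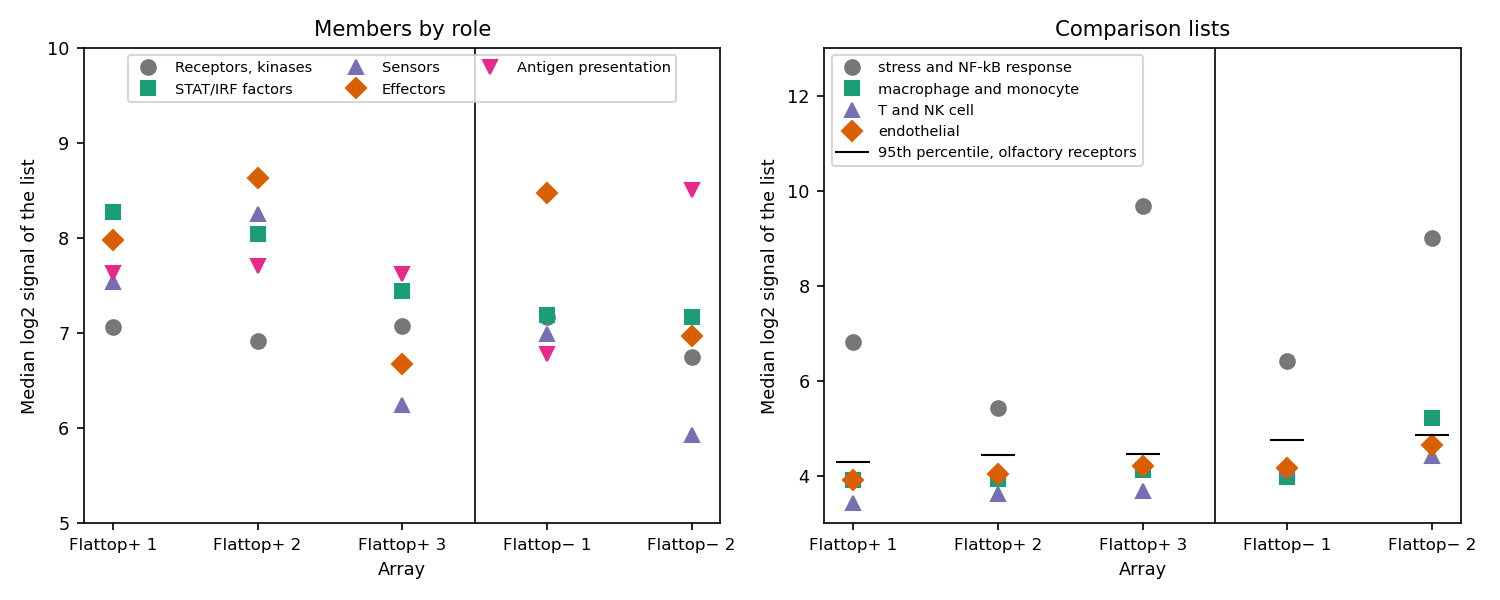
Median log2 signal on each of the 5 arrays for the 5 roles (left) and for stress and NF-κB response genes, macrophage, T and NK cell and endothelial markers and the background level (right). Effectors and sensors are lowest in Flattop-positive replicate 3 and Flattop-negative replicate 2, where the stress and NF-κB median is at 9.68 and 9.01.

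The receptors and Janus kinases varied least between arrays, with a median range over the 5 arrays of 0.83 log2 units against 2.07 for all 48 genes. Their median level was 7.07, 6.92 and 7.08 in the positive pools and 7.17 and 6.75 in the negative pools, and 0 of the 6 were at least 2-fold low in positive replicate 3. Ifnar1 measured 6.91, 6.82 and 6.94 in Flattop-positive replicates 1 to 3 and 5.97 and 6.53 in the negative replicates. All positive arrays were above both negative ones, and the difference was 0.64 ± 0.23 log2 units (limma adjusted p = 0.332). The call was lost when any of positive replicates 1, 2 and 3 or negative replicate 1 was left out (differences of 0.63, 0.68, 0.62 and 0.36), and kept without negative replicate 2 (0.92). Under repeated quantile normalisation and cyclic loess the difference was 0.30 and 0.31, and the call was lost.

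Ifnar2, which pairs with IFNAR1, did not share that direction, with 7.24, 7.03 and 7.22 against 7.70 and 6.97 (difference -0.17). Tyk2, the kinase held by IFNAR1, measured 5.40, 5.68 and 4.74 in the positive and 3.97 and 4.85 in the negative pools, a difference of 0.86 ± 0.40 (limma adjusted p = 0.402). Its groups overlapped, and the gene was above background on 3 of the 5 arrays. Jak1, which serves both interferon receptors, was evenly high at 9.42, 9.11 and 9.51 against 9.17 and 8.84 (0.34 ± 0.23, limma adjusted p = 0.522). The type II receptor genes Ifngr1 and Ifngr2 differed by -0.10 and -0.12 between the fractions.

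All 5 signal transducers and interferon regulatory factors had the higher mean in the positive fraction, with a median difference of 0.72, although none met the call rule. The mean was also higher there for 6361 of the 10090 genes above background on every array. The direction of the median held under repeated quantile normalisation (0.40), cyclic loess (0.27) and centring of the arrays (0.79). The difference of Irf1 turned to -0.13 without positive replicate 3 and to -0.27 without negative replicate 1. Irf9, the DNA-binding part of the complex that reads the ISRE, measured 8.28, 7.98 and 7.44 in positive replicates 1 to 3 and 7.19 and 7.17 in the negative replicates. The groups did not overlap, and the difference was 0.72 ± 0.29 (limma adjusted p = 0.363). Irf3, a factor that acts directly downstream of nucleic acid sensors, measured 6.39, 6.25 and 6.53 against 5.54 and 6.24, again without overlap (0.50 ± 0.27, limma adjusted p = 0.453). Negative replicate 2 was only just below the lowest positive array.

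Stat2, the STAT partner of IRF9, was at 8.97, 9.30 and 7.89 in the positive pools and 8.13 and 7.73 in the negative pools (0.79 ± 0.45, limma adjusted p = 0.472). Positive replicate 3 lay between the negative arrays. Irf7, which amplifies type I interferon production and is itself induced by interferon, ranged from 5.57 in positive replicate 3 to 8.48 in positive replicate 2. Its other values were 7.56 in positive replicate 1 and 5.56 and 6.46 in the negative replicates, and the difference of 1.19 ± 0.87 was smaller than the positive range (limma adjusted p = 0.545). Irf1, a transcription factor that NF-κB also induces, ran the other way between pools. It measured 8.39, 8.05 and 10.24 in positive replicates 1 to 3 and 7.53 and 9.17 in the negative replicates, higher in the pools where most effectors were low, with a difference between fractions of 0.55 ± 0.81 (limma adjusted p = 0.757). A second, dimmer Irf1 probe set gave 6.32, 6.07 and 6.44 against 5.28 and 6.92, so the height in positive replicate 3 rests on 1 of 2 probe sets.

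**Figure D3:**
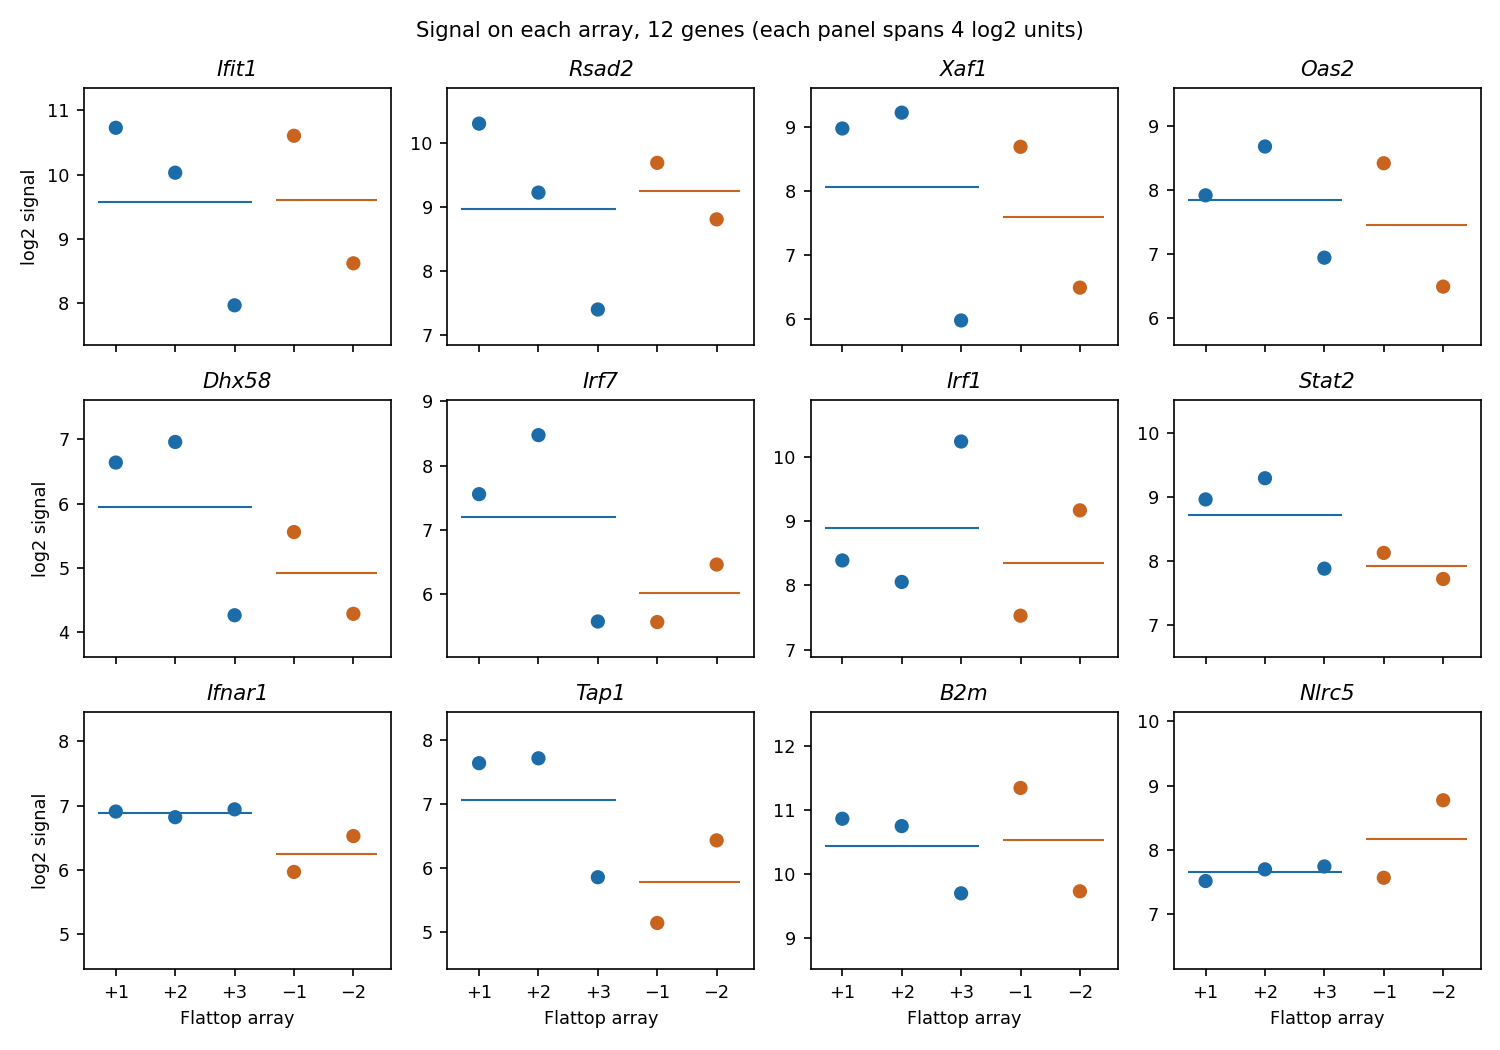
Log2 signal of 12 genes on each array (points) with fraction means (lines), every panel spanning 4 log2 units. Ifit1, Rsad2, Xaf1, Oas2 and Dhx58 spread widely within the fractions, Ifnar1 stays between 5.97 and 6.94, and Irf1 is highest in Flattop-positive replicate 3 at 10.24.

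The 11 nucleic acid sensors were lowest among the positive arrays in replicate 3 without exception (35.4% of all genes). Of the 11, 10 were lower in negative replicate 2 than in negative replicate 1 (45.2% of all genes). Both counts include Oas3, which was below background on every array, and Zbp1, whose negative pools were at 5.028 and 5.025. The median sensor was 1.24 and 1.73 log2 units lower in positive replicate 3 than in positive replicates 1 and 2, and 1.28 lower in negative replicate 2 than in negative replicate 1. Between the fractions their median difference was 0.14, which cyclic loess turned to -0.05. Dhx58, encoding LGP2, a regulator of the RNA helicase sensors, measured 6.64, 6.96 and 4.26 in the positive pools and 5.56 and 4.28 in the negative pools. It was below background in the pools where it was low, and the difference was 1.03 ± 0.90 (limma adjusted p = 0.605). Ifih1, encoding MDA5, a sensor of long double-stranded RNA, was at 7.62, 8.25 and 6.28 against 9.27 and 7.28. It was highest in negative replicate 1, and the difference was -0.89 ± 0.80 (limma adjusted p = 0.612).

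Eif2ak2, encoding PKR, the kinase that halts translation on double-stranded RNA, measured 7.54, 8.45 and 6.31 in the positive and 8.87 and 5.94 in the negative pools. The negative pools were its highest and its lowest array, and the fractions differed by 0.03 ± 1.01. Oasl2, an oligoadenylate synthetase-like gene, was high on the same 3 arrays, with 8.54, 9.00 and 6.25 against 8.63 and 6.84 (0.19 ± 0.96, limma adjusted p = 0.936). The sign of both differences turned under repeated quantile normalisation (-0.22 and -0.11) and cyclic loess (-0.40 and -0.27). Oasl1, which limits the translation of Irf7 mRNA in the mouse, was the one sensor higher in negative replicate 2 (8.74) than in negative replicate 1 (6.00); its positive values were 8.59, 8.75 and 7.44 (difference 0.89 ± 0.87, limma adjusted p = 0.638).

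Some of the oligoadenylate synthetases activate RNase L. Oas2 measured 7.92, 8.68 and 6.94 in the positive pools and 8.42 and 6.49 in the negative pools, low in the same pools as Oasl2. Oas1a was at 7.07, 6.89 and 5.61 against 6.99 and 4.97, and Oas1b at 6.33, 5.88 and 4.32 against 6.00 and 4.84. Oas3 was below background on every array (3.97 to 4.30). Ddx58, encoding the RNA sensor RIG-I, had a smaller negative gap, with 9.15, 9.77 and 7.98 against 8.94 and 8.71. Zbp1, a sensor of Z-form nucleic acids, stayed between 4.46 and 5.14, near background.

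The 21 interferon effectors had a median range over the 5 arrays of 2.29 log2 units. Their median SD over the positive pools was 1.13, and 18 of 21 were at least 2-fold lower in positive replicate 3 than in both other positive pools. The median effector was 1.73 and 2.04 log2 units lower there than in positive replicates 1 and 2, and 1.17 lower in negative replicate 2 than in negative replicate 1. In 16 of the 21, positive replicate 3 was the lowest positive array and negative replicate 2 was also below negative replicate 1. Between the fractions the median difference was 0.11, and it turned to -0.15 under repeated quantile normalisation and -0.14 under cyclic loess.

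Ifit1, which binds viral RNA caps, measured 10.73, 10.03 and 7.96 in positive replicates 1 to 3 and 10.61 and 8.62 in the negative replicates. The 3 high arrays came from both fractions, and the fractions differed by -0.04 ± 0.97. Rsad2, encoding the antiviral enzyme viperin, was at 10.30, 9.23 and 7.40 against 9.69 and 8.81 (difference -0.27). Xaf1, a pro-apoptotic interferon-induced gene, gave 8.97, 9.22 and 5.98 against 8.69 and 6.49, the widest positive range of the effectors, with a difference of 0.47 ± 1.17 (limma adjusted p = 0.862). The fractions overlapped for Ifit1, Rsad2 and Xaf1. Mx1, which belongs to the dynamin-like GTPase family, measured 6.92, 5.77 and 4.65 in the positive and 7.43 and 5.04 in the negative pools. It was highest in negative replicate 1, and its difference was -0.46 ± 0.92.

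Usp18, the protease that removes ISG15 and restrains type I interferon signalling, was low in the same 2 pools, at 9.07, 9.52 and 6.94 against 8.49 and 7.13. Parp14, a mono-ADP-ribosyltransferase, gave 9.70, 9.95 and 7.43 against 10.14 and 7.86. Parp9 and Dtx3l, which encode a ubiquitin ligase pair, were at 7.84, 8.63 and 6.54 against 8.36 and 6.04, and at 7.77, 8.03 and 5.99 against 7.77 and 6.21. All 4 were low in positive replicate 3 and negative replicate 2. Irgm1, an immunity-related GTPase induced by type II interferon, was at 9.43, 9.13 and 7.53 against 9.22 and 7.97. Mx2 and Rtp4 were flatter: Mx2 stayed between 7.23 and 8.32 and Rtp4 between 9.13 and 10.30.

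A few effectors were low in negative replicate 1 as well. Ifi35, an interferon-induced leucine zipper protein, measured 7.44, 8.16 and 6.11 in the positive pools and 4.87 and 6.28 in the negative pools. Positive replicate 3 lay between the negative arrays, and the difference of 1.66 ± 0.71 corresponded to 3.15-fold (limma adjusted p = 0.384). Cmpk2, a mitochondrial nucleotide kinase whose gene neighbours Rsad2, was at 7.79, 7.58 and 5.54 against 5.94 and 5.89 (1.05 ± 0.70, limma adjusted p = 0.518). Its 2 higher arrays were positive replicates 1 and 2 alone, unlike Rsad2. Cxcl10, a chemokine that attracts activated T cells, was at 10.76, 11.35 and 9.06 against 9.54 and 9.66 (0.79 ± 0.67, limma adjusted p = 0.597). Bst2, encoding tetherin, gave 7.70, 8.48 and 6.05 against 6.47 and 6.83.

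With positive replicate 3 left out, 12 of the 48 genes met the call rule, all higher in the positive fraction: Bst2, Cmpk2, Cxcl10, Dhx58, Ifi35, Irf7, Irf9, Parp12, Stat2, Tap1, Tyk2 and Usp18. Their differences then ran from 0.95 (Irf9) to 2.22 (Ifi35), and Ifnar1 was not among them. Of the 19938 genes 2166 met the rule in that fit, 1537 of them higher. The fit takes a pool with high Xist and low effectors out of the positive fraction only. Negative replicate 2, the other such pool, stays in. Without positive replicate 1 or 2 none of the 48 genes met the call rule, while 1198 and 1511 of the 19938 genes did. Leaving out a negative replicate leaves 1 negative array, so only median differences are given here for those fits. The median difference over the 48 genes moved from 0.30 to 0.74 without positive replicate 3, to 0.06 and -0.03 without positive replicates 1 and 2, to 0.67 without negative replicate 1 and to -0.16 without negative replicate 2.

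**Figure D4:**
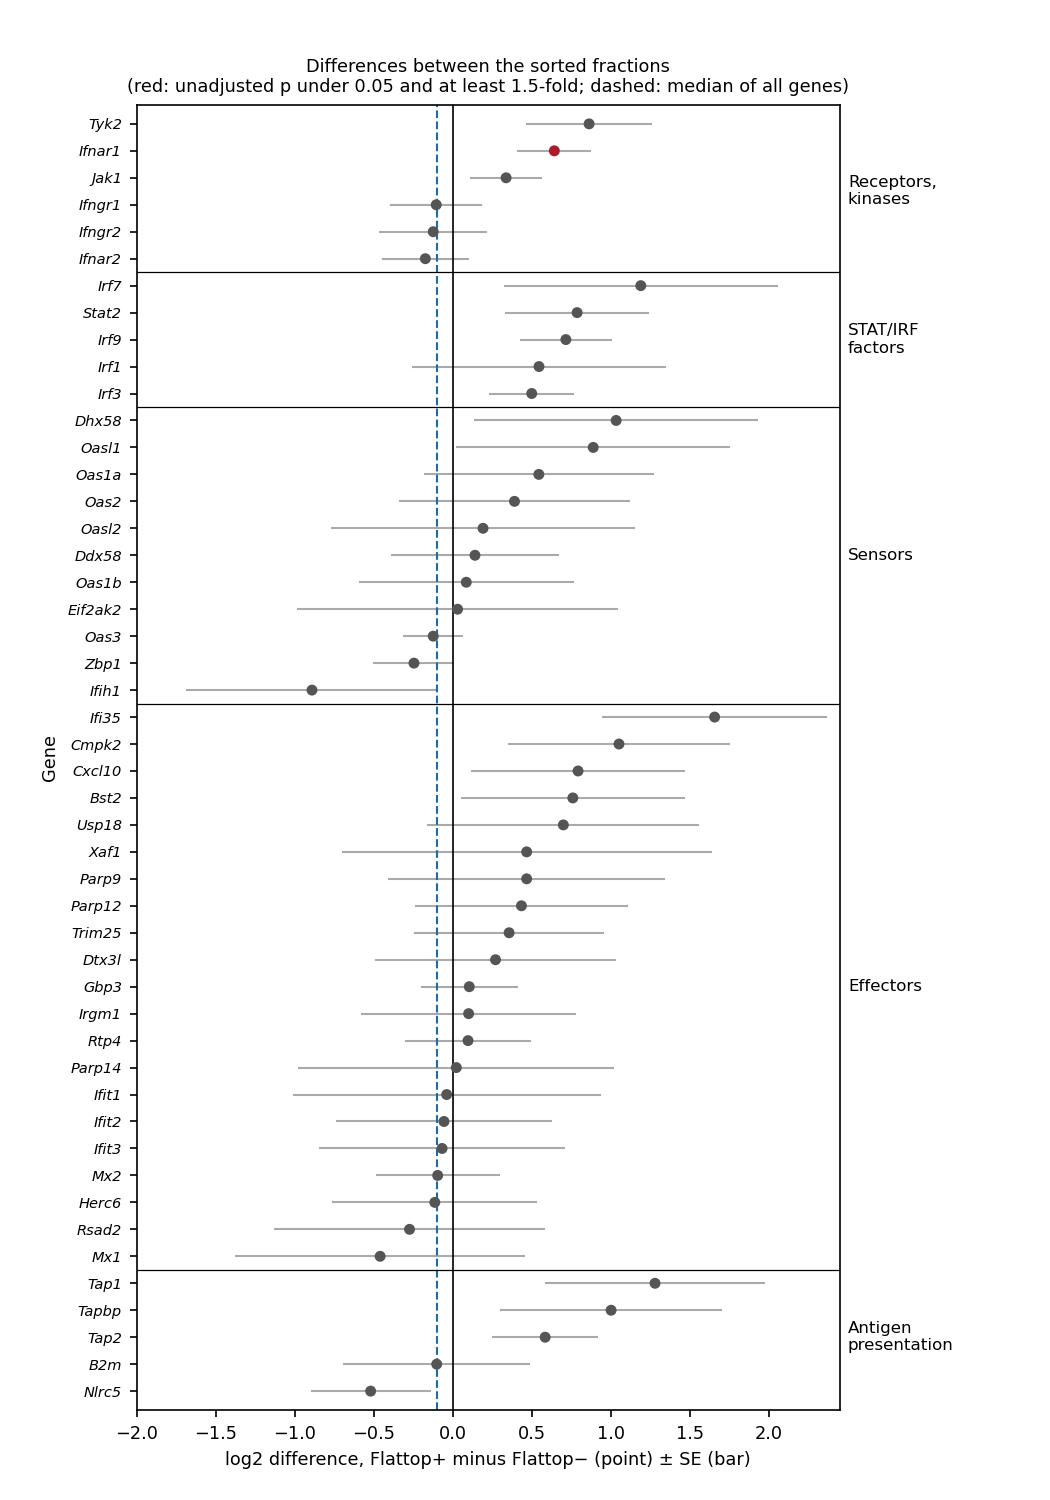
Log2 difference between Flattop-positive and Flattop-negative means for each of the 48 genes, with bars of 1 SE from limma, grouped by role; red marks the gene that met the call rule (Ifnar1) and the dashed line the median of all genes (-0.10). Differences run from -0.89 (Ifih1) to 1.66 (Ifi35), and the error bars of effectors and sensors are mostly wider than those of the receptors.

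The 5 antigen presentation genes differed in which pools were high. Tap1, a subunit of the transporter that carries peptides into the endoplasmic reticulum, measured 7.63, 7.71 and 5.85 in the positive and 5.14 and 6.43 in the negative pools. It was lowest in negative replicate 1, and the difference was 1.28 ± 0.70 (limma adjusted p = 0.457). Tap2, its partner, was at 6.22, 6.96 and 6.08 against 5.60 and 6.07, with all positive arrays above both negative ones by a narrow margin (0.58 ± 0.34, limma adjusted p = 0.472). Tapbp, encoding tapasin, which holds MHC class I at the transporter, gave 9.11, 9.20 and 7.62 against 6.78 and 8.51 (1.0 ± 0.70, limma adjusted p = 0.532). Tap1 and Tapbp were both low in positive replicate 3 but, unlike most effectors, higher in negative replicate 2 than in negative replicate 1.

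B2m, the light chain of MHC class I, instead followed the effectors, with 10.87, 10.75 and 9.70 against 11.35 and 9.73 (difference -0.10). Nlrc5, the transactivator of MHC class I genes, was even in the positive pools at 7.51, 7.70 and 7.74 and highest in negative replicate 2 at 8.77, with 7.56 in negative replicate 1 (-0.52 ± 0.38, limma adjusted p = 0.546). Over the role, negative replicate 1 minus negative replicate 2 had a median of -1.21 log2 units, against 1.17 over the effectors, and the difference between these roles was not tested. The median difference between the fractions was 0.58, and it kept its sign under repeated quantile normalisation (0.33), cyclic loess (0.34) and centring (0.65).

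Wider pathway lists were set beside these genes. Of 62 further interferon-induced genes 53 were measured, and 4 met the call rule, which 11.8% of all genes met: Ifi30, Psme2 and Ifi27 were higher and Ifi203 lower in the positive fraction. Their median difference was 0.09, and 18 of the 53 (34%) were at least 2-fold low in positive replicate 3. Psme2, an activator subunit of the proteasome, measured 8.32, 8.62 and 8.43 in the positive pools and 6.13 and 7.56 in the negative pools (1.61 ± 0.44, limma adjusted p = 0.262). Ifi203 was above background only in negative replicate 1, at 5.93. Trim30a, the other gene of this list with the smallest p among those lower, was below background on every array.

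Of 41 further sensing and signalling genes 32 were measured, with a median difference of -0.01, and 3 met the call rule (11.8% of all genes). Ptpn6, a phosphatase that dampens cytokine receptor signalling, was higher, at 6.43, 6.19 and 6.43 against 5.38 and 5.89 (0.71 ± 0.24, limma adjusted p = 0.307). Mavs, the mitochondrial adaptor of RIG-I and MDA5, missed the rule, at 6.79, 7.25 and 6.56 against 5.23 and 6.45 (1.03 ± 0.42, limma adjusted p = 0.368). The lower calls were Ifng, above background only in negative replicate 1 (4.90), and Irf4, below it on all arrays. The interferon gene Ifnb1 was also below background throughout, at 3.04 to 3.37.

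Of 41 further antigen presentation genes 32 were measured, and 8 met the call rule (11.8% of all genes, and 1714 of the 10090 above background on every array), with a median difference of 0.02. The 6 higher in the positive fraction were Ifi30, Tapbpl, Nfyc, Calr, Psmb9 and H2-M3; the 2 lower, H2-Ab1 and Ciita of the MHC class II pathway, were below background on all arrays. Ifi30, a lysosomal thiol reductase, measured 6.91, 7.05 and 7.61 against 5.94 and 6.27 (1.08 ± 0.28, limma adjusted p = 0.253). Tapbpl, a peptide editor related to tapasin, gave 7.95, 7.98 and 6.94 against 5.74 and 6.60 (1.45 ± 0.44, limma adjusted p = 0.284). Psmb9, an immunoproteasome subunit, was at 9.06, 9.51 and 8.54 against 6.01 and 8.30 (1.88 ± 0.70, limma adjusted p = 0.340). In all 3 the positive arrays were above both negative arrays, as they were for 8 of the 32 genes (25%; 13.7% of all genes and 24.4% of those above background on every array), and negative replicate 1 was the lowest array. The other immunoproteasome subunits were split by pool: Psmb8 gave 7.95, 8.07 and 6.51 against 6.61 and 6.07, and Psmb10 8.49, 9.34 and 6.83 against 7.08 and 6.82.

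The promoters of the genes were searched for the letters of the ISRE (GAAA and again GAAA with any 2 bases between them, on either strand, matches allowed to overlap) in the RefSeq windows from 250 bases before to 50 after each gene's start, GRCm38.p6. Windows existed for 36 of the 48 measured genes, and 14 of these (38.9%) held the letters, against 3.89% of the 15614 measured genes with a window. By role the letters were in 0 of 6 receptor and kinase genes, 1 of 5 transducers and factors, 5 of 7 sensors, 7 of 15 effectors and 1 of 3 antigen presentation genes. The stretches below are shown for genes whose values are given here and lie wholly before the gene's start. Capitals mark the matched letters, in the gene's own orientation.
Ifit1, plus strand, chr19:34640770-34640809: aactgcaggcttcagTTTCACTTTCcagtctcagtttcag
Ifit3, plus strand, chr19:34583358-34583397: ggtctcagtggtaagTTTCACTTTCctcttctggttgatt
Rsad2, minus strand, chr12:26456548-26456587: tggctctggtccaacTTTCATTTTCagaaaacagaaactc
Cxcl10, minus strand, chr5:92349078-92349117: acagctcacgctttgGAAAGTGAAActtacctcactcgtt
Bst2, minus strand, chr8:71537572-71537611: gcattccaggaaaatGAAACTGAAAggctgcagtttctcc
Stat2, plus strand, chr10:128270261-128270300: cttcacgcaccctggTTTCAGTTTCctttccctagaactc
B2m, plus strand, chr2:122147533-122147572: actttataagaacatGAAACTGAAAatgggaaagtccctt
Oas3, minus strand, chr5:120777710-120777749: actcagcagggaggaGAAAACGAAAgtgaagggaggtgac

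The matched letters began 104 bases before the start of Ifit1, 156 before Ifit3, 120 before Rsad2, 213 before Cxcl10, 124 before Bst2, 222 before Stat2, 139 before B2m and 75 before Oas3. Ifit3, whose stretch is shown beside its neighbour Ifit1, measured 10.38, 10.76 and 8.21 in the positive pools and 10.01 and 9.69 in the negative pools. Oas3 held the letters but was below background on all arrays and ranged over 0.32 log2 units, whereas Ifit1 ranged over 2.77. Of the 14 measured genes with the letters, 12 (85.7%) had positive replicate 3 lowest among the positive arrays and negative replicate 2 below negative replicate 1, against 10 of the 22 without them (45.5%). Over all measured genes with a window those shares were 20.9% with the letters and 18.6% without. The genes with and without the letters also differed in role. Of the receptors and kinases, none of which held the letters, 1 of 6 had this order (16.7%). Among sensors and effectors with a window but without the letters, Oasl2, Ifit2, Xaf1, Parp12, Dtx3l, Trim25, Cmpk2 and Herc6 had it. Ifi35 and Oasl1 did not, nor did Bst2 and Cxcl10 among those with the letters. The part of role in these shares was not tested. The median range over the 5 arrays was 2.19 with and 1.95 without the letters among the set's genes, and 0.90 and 0.88 among all genes. These are descriptions of letters, and no binding was measured.

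The letters of the GAS (TTCNNNGAA, which read alike on both strands, searched after the values were seen) were in 8 of the 36 promoters (22.2%), against 8.99% of measured genes with a window. Irf1 held them 90 bases before its start and held no ISRE letters in its window:
Irf1, plus strand, chr11:53769909-53769947: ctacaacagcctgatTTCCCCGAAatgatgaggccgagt

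**Figure D5:**
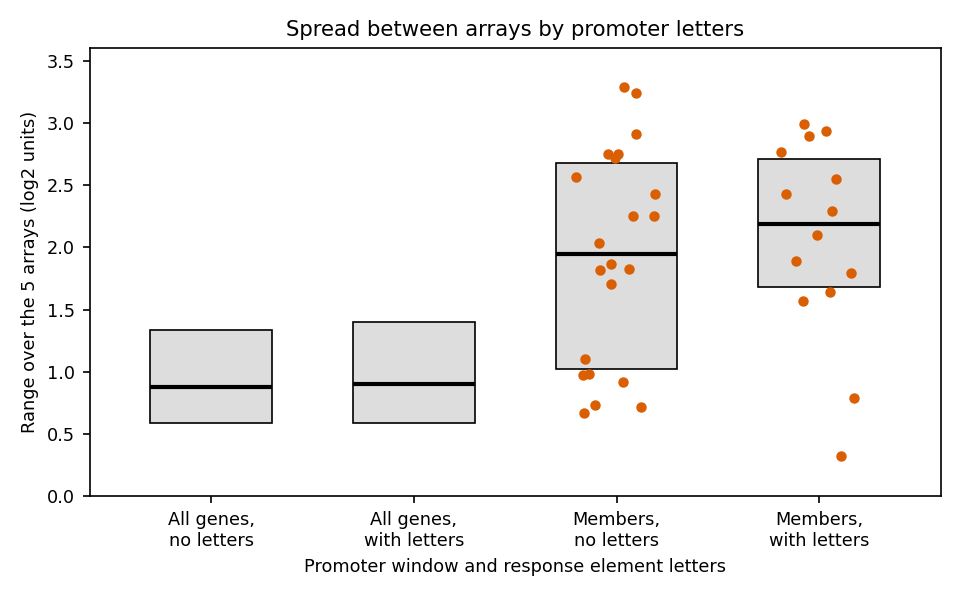
Range of log2 signal over the 5 arrays for genes with and without the ISRE letters in the promoter window, for all measured genes and for the interferon set (orange points); boxes span the quartiles with the median as a line. The set's medians are 2.19 and 1.95, against 0.90 and 0.88 for all genes, whether or not the letters are present.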

How the data were processed

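Gene expression was measured on 5 arrays of sorted islet cell pools. Each deposited value is a probe set's log2 signal. Per the submitters' processing notes, the authors used Affymetrix Expression Console (version 1.3.0.187) with RMA, which quantile-normalises the arrays at the probe level; medians over probe sets still differed, at 4.74 to 4.78 in the positive and 4.91 and 4.98 in the negative arrays. A genome build for the probe sets was not given in the sources used here. Genes were named through the platform annotation: 21789 of 35556 probe sets carried 1 symbol, 1621 several and 12146 none listed. Promoter windows came from a RefSeq table of GRCm38.p6.

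The fractions were compared with limma 3.58.1 in R 4.3.3 (lmFit and eBayes) over 19938 genes with Benjamini-Hochberg adjustment, and the fit was tested on simulated data. The genes of the set and the lists were chosen with earlier results of these data known. Values are printed for called genes, the 3 with the smallest p and those with the widest range over positive or negative arrays in each role, and, in further lists, the 2 with the smallest p in each direction. Other genes were named after their values were seen. Alternatives covered normalisation, dim genes, probe set choice, variance model, array weights, a replicate block and left-out arrays; a block for the pools with high Xist was added after seeing the data. Precision is limited by the small number of arrays.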

Additional observations from a re-analysis of the deposited data

How the results depend on the processing

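No gene of the set passed an adjusted p of 0.05 in limma under any setting run; over all genes that count was 0, and 0 to 434 with 1 array left out, the 434 without negative replicate 2. Genes called, 2356, ranged from 1198 (without positive replicate 1) to 4722 (without negative replicate 2) with 1 array left out, and were 1511 without positive replicate 2, 2166 without positive replicate 3, 4616 without negative replicate 1, 1533 under repeated quantile normalisation, 1371 under cyclic loess and 942 at a 2-fold minimum. Genes of the set called, 1, ranged from 0 to 12 with 1 positive array left out. With centred arrays 2 were called, beside 2353 of all 19938 genes. The block for pools with high Xist called 3 (Ifnar1 and Irf1 higher, Ifih1 lower), beside 2842 of all genes. The count was 0 without dim genes (1611 of 12261 genes), with array weights (1661 of 19938) or at a 2-fold minimum (942 of 19938). Under both repeated quantile normalisation and cyclic loess the only call of the set was Tyk2 (1.04). With trend and robust variance, which called 2057 of all genes, it was Ifi35.

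Whether the replicate numbers pair the arrays could not be decided, because deviations of 2 negative arrays from their mean mirror each other. Across genes, deviations of positive replicates 1, 2 and 3 correlated at 0.182, 0.137 and -0.225 with those of negative replicate 1. With negative replicate 2 the values were -0.182, -0.137 and 0.225. A replicate block leaves positive replicate 3 alone in its block, so it gave the differences without that array. With the block 13 genes of the set were called (1775 of all genes), and the median difference was 0.74. Of these genes 12 were shared with the fit without positive replicate 3, and Tapbp was added. As in that fit, negative replicate 2 was the only pool with high Xist that entered the differences. Ifnar1 was not called under the block (0.62, unadjusted p = 0.132). The difference of Irf1 became -0.13 and that of Mx1 0.10 under the block.

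Directions turned for Jak1 under repeated quantile normalisation (-0.08) and cyclic loess (-0.16), for Eif2ak2 (-0.22 and -0.40) and for Oasl2 (-0.11 and -0.27); with the Xist block Eif2ak2 was at -0.34 and Oasl2 at -0.18. With 1 array left out, differences ran from -1.44 to 1.5 for Eif2ak2, -0.70 to 1.09 for Oasl2, -0.63 to 1.56 for Xaf1, -0.27 to 1.37 for Irf1, -1.65 to 0.73 for Mx1, -1.89 to 0.11 for Ifih1 and -0.48 to 2.26 for Oasl1. Where 1 negative array remained, it was assumed to vary like the positive ones. Of 294 values for the genes named by rule, 232 kept direction and side of the threshold, 28 gained a call, 24 changed sign and 10 lost a call. All 10 lost calls were those of Ifnar1, the only gene of the set called in the main fit. For the other genes, keeping the side of the threshold meant staying uncalled. The cause of these shifts was not tested.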

Other observations

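Several interferon-inducible genes of the wider lists had gaps between pools as large as those of the effectors; they were chosen after their values were seen. Tnfsf10, encoding the death ligand TRAIL, measured 7.83, 7.71 and 5.04 in the positive pools and 7.31 and 4.89 in the negative pools. Tlr3, the endosomal sensor of double-stranded RNA, gave 7.36, 8.01 and 6.39 against 8.42 and 5.69. Iigp1 and Gbp4, GTPases of the type II interferon response, were highest in negative replicate 1, at 8.82 and 9.63, where Iigp1 in negative replicate 2 was at 4.47 and Gbp4 at 6.63. Lgals3bp, a secreted glycoprotein, was lowest there instead, at 6.44, against 9.06 to 10.74 on the other 4 arrays. Socs3, an inhibitor of cytokine signalling, was opposite to most effectors, with 7.11, 6.74 and 9.40 in the positive pools and 4.87 and 8.93 in the negative pools.

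Nlrc5 was covered by 19 probe sets. Negative replicate 2 was above negative replicate 1 in 18 of them and the highest array in 13, and differences between the fractions ran from -0.65 to 0.59. Irf1 had 2 probe sets, with differences of 0.17 and 0.55, and both were higher in negative replicate 2 than in negative replicate 1.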
